A study of Mus musculus with 6 samples.

Results

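Genes of the microtubule, motor and spectrin cytoskeleton were examined in the adult mouse hippocampus. They were found by a pattern on gene symbols, which takes in microtubule-associated proteins, kinesins and their light chains, tubulins, dynein and dynactin subunits, stathmins, ankyrins, spectrins, neurofilaments and the 2 cytoplasmic actins. The name pattern found 68 of the 7507 genes in the table, and RefSeq lists 102 protein-coding mouse genes whose symbols fit it, of which 67 had a row. The remaining member, Kif1bp, fits the pattern but encodes a kinesin-binding protein and not a kinesin.

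The data came from BALI, a method that builds a barcode in place on a tissue section by rounds of ligation, with light deciding which area receives the next digit. In this experiment accessible DNA was tagged and RNA was reverse transcribed in the same section of fresh frozen mouse brain, and barcodes of 4 digits were written onto the dentate gyrus granular layer (DG) or onto CA1. The RNA of 3 sections was used, each giving 1 DG and 1 CA1 library, so that 6 libraries in 3 pairs were compared, and the DNA libraries were not analysed here. Neither region was treated, no genetic change is named for either, and the strain and sex were not stated in the sources used here. The labels give an age of 12 weeks for every sample, whereas the description of how the animals were kept gives 8 to 12 months. The labels do not tie the 3 sections to separate animals, so every p-value below measures the spread between sections only.

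Microtubules are hollow polymers of alpha and beta tubulin that fill axons and dendrites. Microtubule-associated proteins bundle and stabilise them, stathmins bind free tubulin and favour their shrinkage, and kinesins and dynein walk along them with cargo, most kinesins away from the cell body along axons and dynein back towards it. Below the membrane, spectrin tetramers join short actin filaments into a lattice that ankyrins fasten to channels and adhesion proteins, most densely at the axon initial segment. Granule cells of the DG send thin mossy fibres to CA3, and CA1 pyramidal cells send longer axons out of the hippocampus.

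Each library was shallow. The DG libraries held 17999, 4572 and 6298 UMIs (unique molecular identifiers, each standing for 1 captured RNA molecule) in sections 1 to 3, and the CA1 libraries held 9357, 2844 and 4865. A gene with 0 UMIs could therefore still take up to 0.0167% of the deepest library and 0.105% of the shallowest (3 UMIs of the total, counting error only). Markers of the labelled cell types were close to 0: of the 6 DG granule cell markers listed, Synpr had 5, 0 and 1 UMIs in the DG but none in CA1, C1ql3 had 2 UMIs in CA1, and the other 4 had none. The 6 CA1 pyramidal cell markers had 4, 2 and 2 UMIs in the DG against 9, 0 and 2 in CA1, with none from Spink8. Of these, Wfs1 and Neurod6 had 0 UMIs in the DG and 2 each in CA1, Mpped1 had 1 and 3, and Pou3f1 had 2, 2 and 2 in the DG against 4, 0 and 0. Fibcd1 had 1 UMI, in the DG of section 1. Synpr, Wfs1, Neurod6 and Mpped1 thus ran with the labels, on few UMIs. C1ql3 and Fibcd1 ran against them, and Pou3f1 ran with them in section 1 only. These markers are too few in UMIs to check the labels. In bulk libraries of this kind, fewer cells of a type and less RNA per cell cannot be told apart.

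Several members are nearly identical copies of one another, and this bears on their counts, since reads that mapped to more than 1 place were not counted. To show how alike they are, the last 60 coding bases of 2 pairs are given from RefSeq (GRCm38.p6, the assembly known as mm10), 5′ to 3′ on the coding strand, with capitals at the bases that differ between partners. The stretch of Actb lies at chr5:142903801-142903860 and that of Actg1 at chr11:120346393-120346452. Those of Tubb2a and Tubb2b lie at chr13:34074471-34074530 and chr13:34127474-34127533. All 4 are on the minus strand.
Actb: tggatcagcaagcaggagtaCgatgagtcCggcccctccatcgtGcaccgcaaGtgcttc
Actg1: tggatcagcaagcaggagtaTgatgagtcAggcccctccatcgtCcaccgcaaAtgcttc
Tubb2a: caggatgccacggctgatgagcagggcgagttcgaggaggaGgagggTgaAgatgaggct
Tubb2b: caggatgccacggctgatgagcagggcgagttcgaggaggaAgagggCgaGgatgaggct

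The coding sequences of Actb and Actg1 were 88.7% identical over 1128 bases, and those of Tubb2a and Tubb2b were 96.5% identical over 1338 bases. The longest run without a difference was 62 bases for the actins and 551 for the beta tubulins. The stretches shown for Actb, Tubb2a and Tubb2b occur once in the genome, and that of Actg1 occurs in 2 places. Over all exons, 99.0% of the 32-base windows of Actg1 were found more than once in the genome, against 33.3% for Actb. The share was 89.6% for Stmn1, 83.6% for Tuba1a, 74.0% for Tubb4b, 71.7% for Tubb2b and 59.2% for Tubb2a. These 6 genes with more than 50% repeated windows held between 1 and 14 UMIs each and 39 together, and the other 62 members held 1202. The levels of these 6 genes are therefore uncertain, whereas 51 members, with 983 UMIs, had at most 5% repeated windows over all exons. Repeats can also lie at the 3′ end, near the poly-A tail where the cDNA was primed. Over the last 500 exonic bases alone, the repeated share was 93.2% for Kif2a, 81.0% for Kif5b and 71.7% for Dctn1. The levels of Kif2a, Kif5b and Dctn1 are thus uncertain too, although Dctn1 had only 4.40% over all exons. Overlap with another gene is a second limit, because strand was not used in counting: 11 members shared over 10% of their exonic bases with another gene, among them Kif3c, Nefm, Klc1 and Actb.

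**Figure D1:**
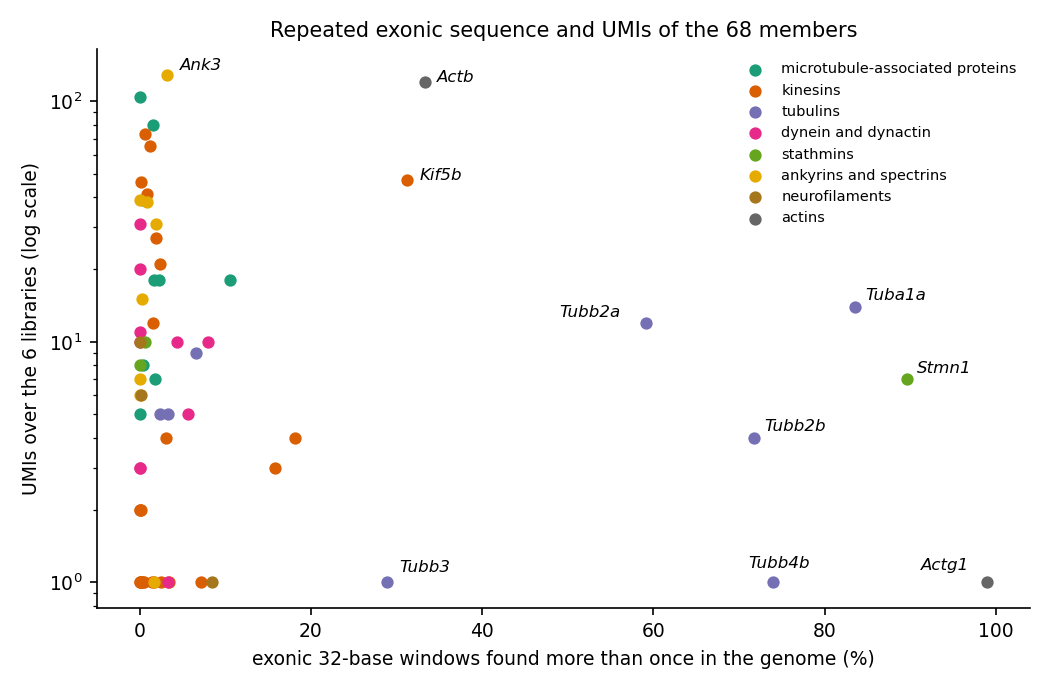
Each point is 1 of the 68 members. The horizontal axis gives the percentage of its exonic 32-base windows found more than once in the genome, the vertical axis its UMIs over the 6 libraries on a log scale, and the colour its class. Actg1 sits at the far right with 1 UMI, 4 of the 8 tubulins lie to the right of 50% with 14 UMIs or fewer, and Ank3, with 129 UMIs, lies near the left edge.

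Together the 68 genes held 1241 UMIs. They took 2.65%, 2.80% and 2.73% of the UMIs of the DG libraries of sections 1 to 3 and 2.55%, 3.06% and 2.84% of those of CA1. The ranges of the regions overlapped, and the mean difference, DG minus CA1, was -0.0897 percentage points ± 0.178 (SD, n = 3 sections), with the DG higher in 1 of 3 sections. Exact binomial 95% intervals, which cover counting error only, ran from 2.42% to 2.90% in the deepest library and from 2.46% to 3.76% in the shallowest. The share of this gene set as a whole did not separate the regions at this depth.

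The UMIs were concentrated in few genes. Members with at least 20 UMIs numbered 17 of 68 (25.0%), against 361 of 7507 genes (4.81%) in the whole table, and these 17 held 951 UMIs, or 76.6% of the set. The same number, 17, had a UMI in all 6 libraries (5.25% of all genes did), and another 17 had a single UMI over the 6 libraries. The median member had 7 UMIs and the median gene of the table had 3. Ank3 with 129 UMIs, Actb with 120 and Map1b with 104 made up 28.4% of the set.

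**Figure D2:**
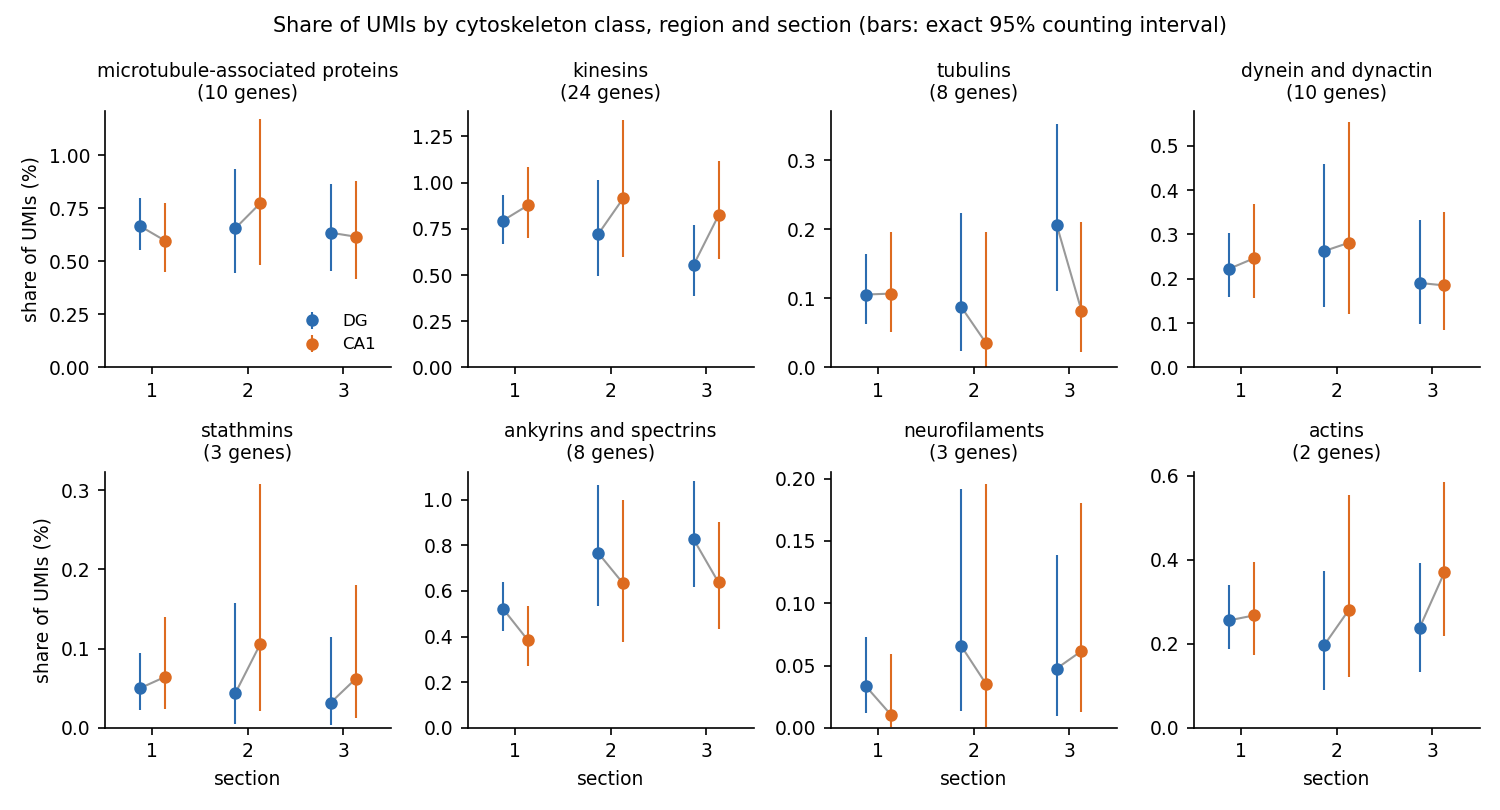
Each panel shows 1 class of cytoskeleton genes. Points give the class's share of all UMIs (%, linear axis from 0) in the DG (blue) and CA1 (orange) library of each section, joined by a grey line, and bars give exact 95% binomial intervals for counting error. Kinesins, stathmins and actins lie lower in the DG in every section, and ankyrins and spectrins lie higher in the DG in every section, but the bars of the regions overlap within each section.

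Among the 8 classes, kinesins had the most UMIs and the largest share in CA1, with a mean of 0.871% ± 0.0462 (SD, n = 3) of UMIs in CA1 and 0.691% ± 0.122 in the DG. The microtubule-associated proteins had 0.663% ± 0.0963 in CA1 and 0.653% ± 0.0161 in the DG, and the ankyrins and spectrins had 0.552% ± 0.145 in CA1 and 0.704% ± 0.161 in the DG, where their mean lay slightly above that of kinesins. Actins, dynein and dynactin, tubulins, stathmins and neurofilaments each took less than these 3 classes in both regions. Kinesins, stathmins and actins had lower shares in the DG in 3 of 3 sections, with ranges that did not overlap between regions. Ankyrins with spectrins had a higher share in the DG in 3 of 3 sections, with overlapping ranges. These are shares of unscaled library totals. The TMM factors that scale library sizes in the tests below were 0.928, 1.02 and 0.942 for the DG and 1.01, 1.03 and 1.08 for CA1. Class shares scaled by these factors were not computed, so direction and separation are given for unscaled totals only. Factors below 1, as in the DG of sections 1 and 3, raise a share, and factors above 1, as in all of CA1, lower it. The separation of kinesins and of actins therefore need not hold on scaled totals. With the factors Actb, nearly all of the actin class, was no longer lower in 3 of 3 sections. No p-value was computed for the class sums, since they add genes picked with earlier results of the same libraries known.

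Shares of other RNAs were also compared between the regions, without a test. The share of the 7 of 8 oligodendrocyte markers with UMIs was lower in the DG in 3 of 3 sections, at 0.800%, 0.503% and 0.715% against 0.994%, 0.668% and 0.781% in CA1, with Mag at 0. The ranges of the regions overlapped, and so did the counting intervals within each section, for example 0.675% to 0.941% and 0.803% to 1.22% in section 1. A list of 11 noncoding RNAs, called nuclear noncoding here, had Malat1 in front and included the ribosomal precursor Rn45s, with 679 of its 3274 UMIs. It took 5.30% to 8.09% of DG libraries and 7.57% to 10.6% of CA1 libraries and was lower in the DG in 3 of 3 sections, with overlapping ranges. With these 11 RNAs, Rn45s included, taken out of the library totals, the difference of the whole cytoskeleton set went from -0.0897 to -0.168 percentage points. That of kinesins went from -0.180 to -0.217 and that of ankyrins and spectrins from 0.153 to 0.151, and no class changed direction. The part of oligodendrocyte RNA in these differences was not tested. The 5 astrocyte markers with UMIs took 0.167% to 0.288% of the libraries, with Gfap and Gja1 at 0, and were lower in the DG in 2 of 3 sections. The 6 general neuron markers took 0.481% to 0.703%, the 5 interneuron markers with UMIs held 19 in all, and microglial and endothelial markers held 3 and 8, with Csf1r, P2ry12, Cldn5 and Pecam1 at 0.

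The test across the table called no member between DG and CA1. After edgeR's low-count filter 43 genes were tested, of which 3 were members, and 0 of the 43 (0%) passed an adjusted p of 0.05 (quasi-likelihood test, Benjamini-Hochberg adjustment), with 3 genes, none of them a member, below an unadjusted p of 0.05. DESeq2 called 0 of the same genes. When every gene with at least 20 UMIs was kept instead, 361 genes were tested and 1 was called (0.277%), the kinase gene Prkce, which is no member. None of the 17 members in that fit was called, and 1, Kif3a, had an unadjusted p below 0.05. The median log2 fold change, DG over CA1, was -0.0041 among the 17 members and -0.03 among the 361 genes, and 8 of the 17 members (47.1%) and 173 of the 361 genes (47.9%) lay above 0.

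**Figure D3:**
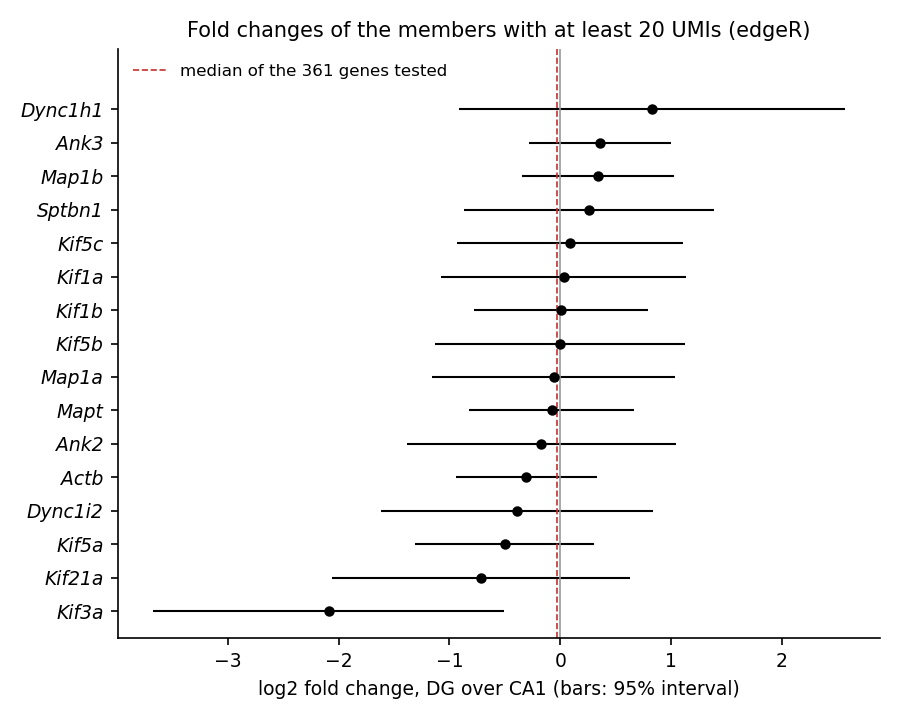
Points give the log2 fold change, DG over CA1, of 16 of the 17 members with at least 20 UMIs in the edgeR fit over 361 genes, and bars give 95% intervals. The dashed red line marks the median of all genes tested (-0.03). The interval of Kif3a, at -2.09, is the only one shown that does not cross 0, and its adjusted p was 0.818.

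Agreement in direction over the sections was also counted. Of the 361 genes with at least 20 UMIs, 45 (12.5%) had a higher share in the DG in 3 of 3 sections, and 3 of the 17 members did (17.6%), namely Map1b, Sptbn1 and Dync1h1. A lower share in 3 of 3 sections was found for 54 genes (15.0%) and for 4 of 17 members (23.5%), namely Actb, Kif5a, Kif3a and Dync1i2. With library sizes scaled by TMM, Actb and Dync1i2 left the count, and 38 of the 361 genes (10.5%) were lower. The ranges of the regions did not overlap, with the DG higher, for 19 genes (5.26%) and for 0 of 17 members. They did not overlap, with the DG lower, for 17 genes (4.71%) and for 1 of 17 members (5.88%), Kif3a. The shares of members lie close to those of the whole table.

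**Figure D4:**
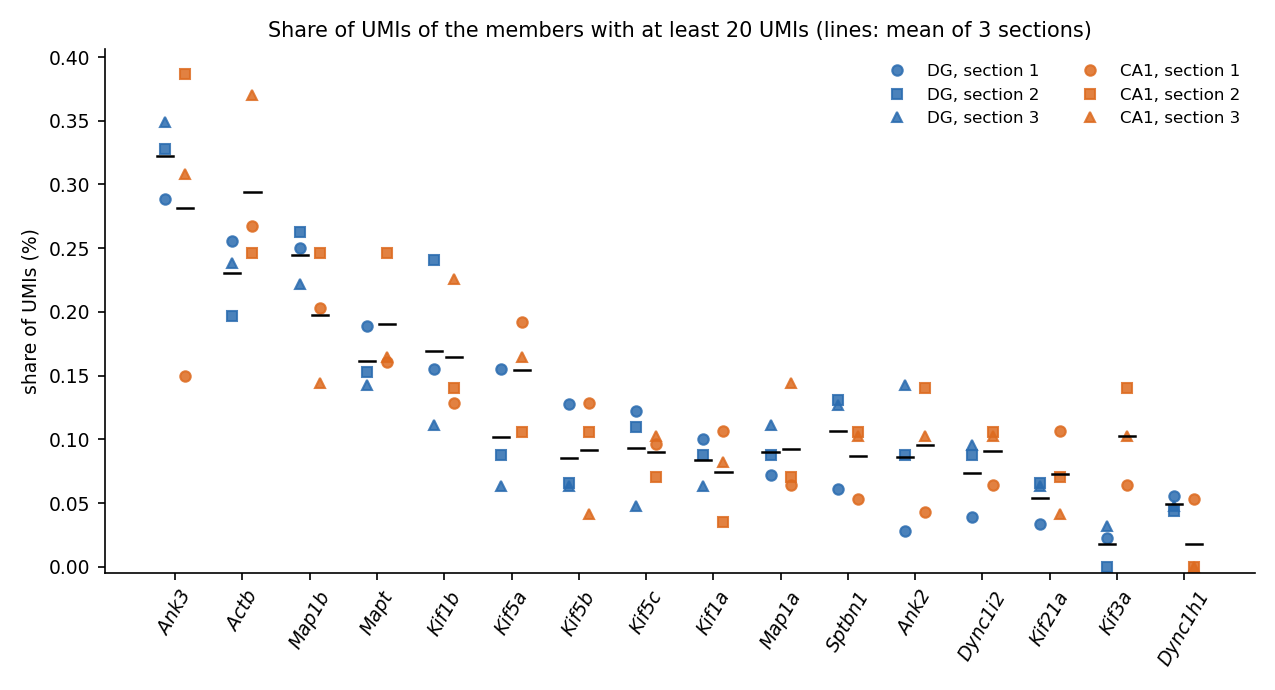
Shares of UMIs (%, linear axis) of 16 of the 17 members with at least 20 UMIs, ordered by total UMIs. Symbols stand for sections 1 (circle), 2 (square) and 3 (triangle), blue for DG and orange for CA1, and black lines for the mean of 3 sections. Kif3a is the only gene shown whose DG points all lie below its CA1 points, and Dync1h1 shows 2 CA1 libraries at 0.

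The microtubule-associated proteins comprised 10 genes and 298 UMIs. They took 0.667%, 0.656% and 0.635% of UMIs in the DG and 0.598%, 0.774% and 0.617% in CA1, so that the regions overlapped, and the difference was -0.0102 percentage points ± 0.0961. Map1b, which encodes a large protein that binds microtubules and actin in growing and mature axons, lies on the minus strand at chr13:99421464-99516602. It had 45, 12 and 14 UMIs in the DG against 19, 7 and 7 in CA1, shares of 0.250%, 0.262% and 0.222% against 0.203%, 0.246% and 0.144%. The share of Map1b was higher in the DG of each section, though the DG library of section 3 lay below the CA1 library of section 2. Its log2 fold change was 0.46 (SE 0.36, 95% interval -0.26 to 1.18, edgeR adjusted p = 0.650), so that a change from 0.835-fold to 2.26-fold fits the interval. Mapt, the gene of tau, had 34, 7 and 9 UMIs in the DG against 15, 7 and 8 in CA1, with a difference of -0.0287 percentage points ± 0.0611. Map1a, a relative of Map1b best known from mature dendrites, had 13, 4 and 7 UMIs in the DG against 6, 2 and 7 in CA1, and its shares overlapped. Map2, the classical marker protein of dendrites, had 7, 1 and 4 UMIs against 4, 2 and 0, Map4 had 18 UMIs and Mapre1, whose product tracks growing microtubule ends, had 18. The other 4 of the 10 genes were Map7 with 8 UMIs, Map6 with 7, Map9 with 5 and Mapre2 with 1.

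The kinesin class held the most genes, 24, and the most UMIs, 359. It took 0.794%, 0.722% and 0.556% of UMIs in the DG and 0.876%, 0.914% and 0.822% in CA1. On unscaled totals the highest DG library lay just below the lowest CA1 library, which need not hold with the TMM factors. The difference was -0.180 percentage points ± 0.0929 and was negative in 3 of 3 sections, yet the counting intervals of DG and CA1 overlapped within every section, for example 0.387% to 0.772% and 0.588% to 1.12% in section 3. Without section 3 the difference was -0.137 percentage points. The kinesin genes with a UMI in every library were Kif1a, Kif1b, Kif5a, Kif5b, Kif5c and Kif21a.

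The 3 genes of the Kif5 family encode conventional kinesin-1 heavy chains, the motors of fast axonal transport, of which Kif5a and Kif5c are neuronal and Kif5b is expressed in most cells. Kif5a had 28, 4 and 4 UMIs in the DG against 18, 3 and 8 in CA1, shares of 0.156%, 0.0875% and 0.0635% against 0.192%, 0.105% and 0.164%, lower in the DG in 3 of 3 sections but with overlapping ranges. Its log2 fold change in the 361-gene fit was -0.50 (SE 0.41, 95% interval -1.31 to 0.31, edgeR adjusted p = 0.985). Kif5b had 23, 3 and 4 UMIs against 12, 3 and 2, and Kif5c had 22, 5 and 3 against 9, 2 and 5, and neither kept 1 direction over the sections. The family as a whole took 0.406%, 0.262% and 0.175% of DG libraries and 0.417%, 0.281% and 0.308% of CA1 libraries, with a difference of -0.0546 percentage points ± 0.0686. Of the kinesin light chains, which link kinesin-1 to cargo, Klc1 had 7, 0 and 0 UMIs against 1, 1 and 3, and Klc2 and Klc4 had 1 UMI each.

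Kif1a and Kif1b encode kinesin-3 motors that carry synaptic vesicle precursors. Kif1b had 28, 11 and 7 UMIs in the DG against 12, 4 and 11 in CA1, and Kif1a had 18, 4 and 4 against 10, 1 and 4. The DG was higher in 2 of 3 sections for Kif1b and in 1 of 3 for Kif1a. The Kif1 family, Kif1c included, took 0.253% ± 0.0768 of UMIs in the DG and 0.243% ± 0.0663 in CA1, a difference of 0.00946 percentage points ± 0.143. This family did not have a lower share in the DG in every section, as the class did.

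Kif3a had the lowest fold change of the 17 members with at least 20 UMIs. It encodes a motor subunit of heterotrimeric kinesin-2, which serves cilia and axonal transport, and lies on the plus strand at chr11:53565701-53604248. It had 4, 0 and 2 UMIs in the DG against 6, 4 and 5 in CA1, shares of 0.0222%, 0% and 0.0318% against 0.0641%, 0.141% and 0.103%. All 3 DG libraries lay below all 3 CA1 libraries, although the DG libraries were the deeper ones of each pair. The DG library of section 2, with 0 of 4572 UMIs, allows up to 0.0656%, however, above the 0.0641% of CA1 in section 1. The log2 fold change was -2.09 in the 361-gene fit (SE 0.81, 95% interval -3.67 to -0.50, edgeR unadjusted p = 0.00984, adjusted p = 0.818) and -1.81 (SE 0.89) in the fit of all 7507 genes, where the median gene lay at 0.46. With 21 UMIs in all the gene fails the correction, and it was singled out as the lowest of 17. Its partner motor gene Kif3b had 2 UMIs, both in CA1, while Kifap3, which encodes the non-motor subunit of the same complex, had 14, 2 and 7 UMIs in the DG against 4, 3 and 0 in CA1. Kif3c, another kinesin-2 gene, had 3 UMIs in the DG of section 1 and 1 in CA1.

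Kif21a, which encodes a kinesin that curbs microtubule growth, had the second lowest fold change without a filter among the 17 members with at least 20 UMIs, at -0.49 on the log2 scale (SE 0.79, edgeR adjusted p = 0.768, median of all genes 0.46). It had 6, 3 and 4 UMIs in the DG against 10, 2 and 2 in CA1, and its fold change turned positive, to 0.61, when section 1 was left out. The remaining kinesins with a row held 4 UMIs or fewer each. They include Kif23, with 2 UMIs in 1 DG library, and Kif15 and Kif18b, with 1 each, genes best known from dividing cells.

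Dynein and dynactin comprised 10 genes and 104 UMIs, with shares of 0.222%, 0.262% and 0.191% in the DG and 0.246%, 0.281% and 0.185% in CA1. The difference of -0.0123 percentage points ± 0.0156 was smaller than its spread. Dync1i2, an intermediate chain that joins dynein to cargo and dynactin, had 7, 4 and 6 UMIs against 6, 3 and 5, so that its share was lower in the DG in 3 of 3 sections by small amounts, with a mean difference of -0.0169 percentage points ± 0.00891. Dync1h1, the heavy chain that holds the motor of cytoplasmic dynein 1, had 10, 2 and 3 UMIs in the DG against 5, 0 and 0 in CA1. The DG exceeded CA1 in 3 of 3 sections, but 2 CA1 libraries were at 0, and those depths allow up to 0.105% and 0.0617%, above the 0.0437% and 0.0476% of the DG libraries of the same sections. The log2 fold change of Dync1h1 was 1.05 without a filter (SE 0.95, 95% interval -0.81 to 2.91, edgeR adjusted p = 0.663), the highest among the 17, against a median of 0.46 over all genes in that fit. It was 0.64 without section 3 and 4.31 without section 1, where the CA1 libraries left were both at 0, so that no fold can be read. On few UMIs, the counts of other subunits of this complex lay on both sides. The light intermediate chain gene Dync1li2 had 1, 1 and 0 UMIs in the DG against 3, 3 and 2 in CA1. Dync1li1 had 3, 1 and 1 in the DG and none in CA1. The CA1 depths allow up to 0.0321%, 0.105% and 0.0617%, above the DG shares of Dync1li1, 0.0167%, 0.0219% and 0.0159%. Dync2h1, the heavy chain of the ciliary dynein, had 7, 1 and 1 UMIs against 1, 0 and 1. The 4 dynactin genes, led by Dctn1 and Dctn2 with 10 UMIs each, held 24 UMIs and took 0.0421% ± 0.0254 of UMIs in the DG and 0.0484% ± 0.0420 in CA1.

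Tubulins, the building blocks of the microtubule itself, held only 51 UMIs over 8 genes. They took 0.106%, 0.0875% and 0.206% of UMIs in the DG and 0.107%, 0.0352% and 0.0822% in CA1, a difference of 0.0584 percentage points ± 0.0630 with overlapping ranges. Tuba1a, the main alpha tubulin of postmitotic neurons, had 3, 1 and 3 UMIs against 5, 1 and 1. Tubb2a had 5, 1 and 4 UMIs in the DG against 1, 0 and 1 in CA1, a higher share in the DG in 3 of 3 sections. Tubb5 had 4, 0 and 3 against 1, 0 and 1, and the neuronal Tubb3 had 1 UMI. The 6 beta tubulins together had 13, 3 and 8 UMIs in the DG against 5, 0 and 3 in CA1, shares of 0.0656% to 0.127% against 0% to 0.0617%. The ranges did not overlap, but the CA1 library of section 2, with 0 of 2844 UMIs, allows up to 0.105%. Reads that fit several beta tubulins were counted in neither region, and Tubb2a and Tubb2b cannot be told apart over 551 bases.

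The 3 stathmin genes held 25 UMIs. They took 0.050%, 0.0437% and 0.0318% of UMIs in the DG and 0.0641%, 0.105% and 0.0617% in CA1, lower in the DG in 3 of 3 sections without overlap, and the difference was -0.0353 percentage points ± 0.0243. These shares stand for 9, 2 and 2 UMIs in the DG against 6, 3 and 3 in CA1, and the counting intervals in section 2, 0.00530% to 0.158% and 0.0218% to 0.308%, overlapped widely. Stmn2, a neuronal stathmin linked to axon growth and repair, had 2, 1 and 1 UMIs against 4, 1 and 1. Stmn3 had 5, 0 and 1 against 1, 0 and 1, and Stmn1 had 2, 1 and 0 against 1, 2 and 1.

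The ankyrins and spectrins comprised 8 genes and 266 UMIs, and were the only one of the 8 classes with a higher share in the DG in every section. They took 0.522%, 0.766% and 0.826% of DG libraries and 0.385%, 0.633% and 0.637% of CA1 libraries. The difference was 0.153 percentage points ± 0.0309. This SD is smaller than the counting intervals of the single shares, so it cannot show that the sections agree. The parts of the class were less even: the ankyrins differed by 0.124, -0.112 and 0.0970 percentage points in sections 1 to 3. The levels of the class varied between sections, since both libraries of section 1 lay below the other 4. The libraries of section 1 were also the deepest and had the lowest nuclear noncoding share of their region, and the part of either in the lower level was not tested. Within sections the counting intervals overlapped, for example 0.422% to 0.639% and 0.270% to 0.532% in section 1. Without Ank3, the member with the most UMIs, the difference was 0.112 percentage points.

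Ank3 encodes ankyrin-G, the protein that organises the axon initial segment and nodes of Ranvier, and lies on the plus strand at chr10:69533486-70027436. It had the most UMIs of the set, 52, 15 and 22 in the DG and 14, 11 and 15 in CA1. Its shares were 0.289%, 0.328% and 0.349% in DG libraries and 0.150%, 0.387% and 0.308% in CA1, higher in the DG in 2 of 3 sections, with the CA1 libraries of sections 1 and 2 at the extremes. The log2 fold change was 0.47 (SE 0.34, 95% interval -0.21 to 1.16, edgeR adjusted p = 0.650), which spans 0.866-fold to 2.23-fold, and without section 1 it was 0.17. Ank2, the gene of ankyrin-B of the axon shaft, had 5, 4 and 9 UMIs against 4, 4 and 5, and Ank1 had 1 UMI. The 3 ankyrins together differed by 0.0365 percentage points ± 0.129.

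The 5 spectrin genes took 0.206%, 0.350% and 0.318% of DG libraries and 0.192%, 0.105% and 0.226% of CA1 libraries. The DG exceeded CA1 in 3 of 3 sections, by 0.116 percentage points ± 0.118, a mean of 1.67 times that of CA1, but the sections were uneven, with differences of 0.0132, 0.244 and 0.0915 percentage points and ratios of 1.07, 3.32 and 1.40, so that section 2 carried most of the mean. Sptbn1, beta-II spectrin, the main axonal form, had 11, 6 and 8 UMIs against 5, 3 and 5, a higher share in the DG in 3 of 3 sections by 0.0192 percentage points ± 0.0100. Sptan1, the alpha spectrin that pairs with these beta chains, had 7, 1 and 2 against 2, 0 and 3. Sptbn4, the beta-IV spectrin of the initial segment, had 7 UMIs, 6 of them in the DG, and Sptb had 6.

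Neurofilaments, which set the calibre of long axons, held 17 UMIs. Nefl had 3, 1 and 2 UMIs in the DG against 1, 1 and 2 in CA1, Nefm had 2, 2 and 1 against 0, 0 and 1, and Nefh had 1 UMI. The difference of the class was 0.0130 percentage points ± 0.0238.

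The actin class was in effect Actb, which held 99.2% of its 121 UMIs. Actb lies on the minus strand at chr5:142903115-142907976 and had 46, 9 and 15 UMIs in the DG against 25, 7 and 18 in CA1. Its shares were 0.256%, 0.197% and 0.238% against 0.267%, 0.246% and 0.370%, lower in the DG in 3 of 3 sections, but the DG library of section 1 lay above the CA1 library of section 2. The log2 fold change was -0.18 (SE 0.33, 95% interval -0.85 to 0.48, edgeR adjusted p = 0.910). Actg1, the gene of the other cytoplasmic actin, had 1 UMI, in the CA1 library of section 2, and that UMI is what parts the ranges of the class. The ratio of the 2 actin genes cannot be read as expression, since 99.0% of the Actg1 windows are repeated elsewhere in the genome, in the median at 5 places.

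For a comparison of levels between genes, UMIs were also divided by exon length. The cDNA was primed at poly-A tails and a UMI stands for 1 molecule, so counts need not grow with length, and whether they do was not tested. In CPM (UMIs scaled to 1 common library total) per kilobase of exon, Actb stood at 1230 ± 272 (SD over 6 libraries), and 20 of 7481 genes with a length (0.267%) were at or above that level. Dync1i2 followed at 231 ± 72.9, Stmn1 at 212 ± 234, Tuba1a at 205 ± 96.6, Map1b at 180 ± 35.4 and Mapt at 174 ± 37.2. The kinesin-1 genes lay next to one another, Kif5a at 153 ± 59.9, Kif5b at 147 ± 61.2 and Kif5c at 133 ± 40.1, with Tubb2a at 150 ± 135 among them, and from Dync1i2 to Kif5c the spreads of all neighbours overlapped. The places of Stmn1, Tuba1a, Tubb2a and Kif5b are uncertain because of their repeated sequence, and that of Stmn1 rests on 7 UMIs. Ank3, first by UMIs, stood at 66.4 ± 18.0 on this scale, which divides by its 45.5 kb of exon, and 10.6% of genes were at or above that level. Ank2, at 41.4 kb, stood at 21.9 ± 11.6. Long genes stand lower per kilobase than by UMIs, by construction of the scale.

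Other genes of the same machinery were described from lists, and none of their members passed edgeR's filter for the 43-gene test. Of 34 further microtubule-associated and end-binding genes, 30 had UMIs, 265 in all, and their share differed by 0.0311 percentage points ± 0.122, with Dclk1, Macf1 and Dst in front. The 25 of 32 motor adaptors and regulators with UMIs held 181 and differed by 0.102 percentage points ± 0.106. The 21 of 36 tubulin folding and modifying genes with UMIs held 95 and differed by -0.0409 percentage points ± 0.129. The 52 of 65 actin regulators with UMIs held 305 and differed by -0.0682 percentage points ± 0.188. The membrane skeleton list mixes adducins and other skeleton genes with genes of membrane linkers and adhesion molecules. It had 10 of 16 genes with UMIs and 95 UMIs, of which Add2 held 20 and the adhesion genes Nrcam, Nfasc and L1cam held 17, 16 and 10. It took 0.244%, 0.262% and 0.159% of DG libraries and 0.171%, 0.246% and 0.123% of CA1 libraries. The DG exceeded CA1 in 3 of 3 sections by 0.0417 percentage points ± 0.0291, the same direction as the spectrins, with overlapping ranges. In the 361-gene fit 7 genes of these lists were tested, Dclk1, Macf1, Dst, Kifap3, Nudcd3, Cyfip2 and Add2, and none was called. Other intermediate filament genes held 7 UMIs.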

How the data were processed

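RNA and accessible DNA were barcoded in 3 sections of adult mouse brain, and the RNA table was used. The authors extracted 6-base UMIs with UMI-tools, trimmed reads with cutadapt 4.1, aligned them with STAR 2.7.9a to mm10, assigned uniquely mapped reads to genes with featureCounts (Subread 2.0.3, no strand option stated) and counted UMIs per gene. The deposited counts carry an added 1 per gene and library, which was subtracted. The row of totals was dropped. The table also holds the authors' CPM, fold and log10 columns, which were not used. UMIs of 6 bases allow 4096 labels, so abundant genes are slightly undercounted.

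Library totals of 2844 to 17999 UMIs limit precision. The test was edgeR 4.0.16 (quasi-likelihood, TMM, filterByExpr with a minimum count of 10, Benjamini-Hochberg over all genes tested) in R 4.3.3, tested on simulated data. Members outside the filter have values from fits with at least 20 UMIs or with no filter. DESeq2 1.42.0, other scalings, filters, a section block and leaving out sections were alternatives, and block with at least 20 UMIs was added after the data were seen. Both libraries of a number come from the same section, which pairs them. Their deviations from the region means correlated with r of 0.283, 0.0398 and 0.0312 in sections 1 to 3 over 361 genes. The block changed the calls only without a filter, where it added Prkce.

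Members and lists were chosen with earlier results of these data known. Genes named were those past the filter, the 3 with most UMIs in each class and the 2 highest and 2 lowest fold changes without a filter among members with at least 20 UMIs. A gene that this rule names is not reported here. All others were named after their values were seen.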

Additional observations from a re-analysis of the deposited data

How the results depend on the processing

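Depth is the main limit: 51 of 68 members had fewer than 20 UMIs. The number of genes called was 0 in the main test, and 0 under RLE size factors, unscaled totals, no filter, DESeq2, the deposited counts and each section left out (lowest 0, highest 0). It was 1, Prkce, with at least 20 UMIs, with the replicate block and no filter, and with the block and at least 20 UMIs. With the replicate block alone 0 genes were called, and the log2 fold changes were 0.54 for Ank3, 0.45 for Map1b and -0.14 for Actb (adjusted p = 0.363, 0.438 and 0.937, edgeR), and the block changed no call of a member. Ank3, Map1b and Actb kept their direction under all 12 alternatives each, without a call, and Kif3a and Dync1h1 under all 9 of theirs, though Dync1h1 ranged from 0.64 to 4.31 with 1 section left out. With 1 section left out Ank3 ranged from 0.17 (without section 1) to 0.58, and Actb from -0.39 to -0.08 (without section 3). Kif21a ranged from -0.89 to 0.61 with 1 section left out and reversed without section 1.

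Without subtracting the added 1, the share difference was 0.172 percentage points for the whole set, -0.0250 for kinesins, 0.00479 for dynein and dynactin, 0.121 for ankyrins and spectrins and -0.00532 for actins, because the 1 weighs more in shallow libraries. Without its leading member it was 0.00463 for dynein and dynactin, 0.112 for ankyrins and spectrins and -0.0117 for actins. The other alternatives moved the share differences by less than the SD between sections, though the sign of the microtubule-associated proteins changed under 4 of 9. Leaving out 1 section gave -0.182 to -0.00483 for the whole set, -0.229 to -0.137 for kinesins and 0.135 to 0.163 for ankyrins and spectrins. With at least 50 UMIs, 1 of 6 members (16.7%) and 10 of 80 genes (12.5%) were higher in the DG in all sections. Lower in all sections were 2 of 6 members (33.3%) and 18 of 80 genes (22.5%). With TMM-scaled libraries 2 of 17 members (11.8%) were lower, since Actb and Dync1i2 left that count, and 38 of 361 genes (10.5%) were.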
